A study of Arabidopsis thaliana with 24 samples.

Results

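UDP-glycosyltransferases (UGTs) of Arabidopsis thaliana were followed across roots and leaves, 2 genotypes and 2 iron supplies. The family was taken as every probe set whose only gene has a platform symbol of UGT followed by a number, leaving out UGT72E1, UGT72E2 and UGT72E3. This gave 37 genes, each with 1 probe set, among 17810 probe sets tested, of which 9869 carried a single gene name. Expression values were not used to choose them, and all 37 entered every fit, since no filter on low values was applied. UGTs whose probe sets are unnamed here were not analysed.

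Plants were of the Col ecotype, either wild type or the rglg1 rglg2 double mutant, which carries mutations in a pair of genes for RING-type ubiquitin ligases and is called the mutant below. They grew at 21 °C in continuous light, moved to new medium at 10 days of age, and were collected 3 days later, as 13-day-old plants. The +Fe medium held 40 µM FeEDTA and the -Fe medium 100 µM of a pyridyl-diphenyl-triazine sulfonate iron chelator. Each of the 8 combinations of tissue, genotype and medium was measured on 3 arrays, labelled biological replicates, 24 arrays in all. Whether an array stood for 1 plant or a pool, and which alleles the mutant carries, is not given in the labels. RGLG1 and RGLG2 are not among the named genes of the probe sets, so the genotype of the arrays was not checked from them.

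UGTs move a sugar from a UDP-sugar onto small molecules such as flavonols, hydroxycinnamic acids, plant hormones, glucosinolate precursors and foreign compounds. The sugar makes its acceptor more soluble, often stops a hormone from acting, and lets the product be stored in the vacuole. Iron-deficient Arabidopsis roots make phenolic coumarins that are stored as glucosides, so sugar transfer to phenolics lies close to the iron response of this plant. Members are ordered below by the acceptors their products are known for, and 12 of the 37 had no role assigned in this ordering.

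The values are log2 signals in which each probe set is centred on its median over the 24 arrays. Only differences between arrays of the same gene can therefore be read, not which gene is more abundant. The labelled tissues matched their markers: all 4 measured green-tissue genes were higher in Col leaves and both measured root genes, BGLU23 and EXPA7, were higher in Col roots. Correlation between replicates over all probe sets ranged from 0.933 to 0.984 for roots and from 0.944 to 0.971 for leaves of Col. Replicate 3 of mutant leaves stood apart, at 0.852 to 0.905 with replicates 1 and 2. Genotype calls and differences of the called members in leaves are therefore given with and without it. Other values that rest on mutant leaves are from all arrays unless stated. The spread between replicates (pooled SD) had a median over the members of 0.15 in roots and 0.25 in leaves, against 0.14 and 0.18 over all probe sets. With 3 arrays a group, precision is limited by that number.

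**Figure D1:**
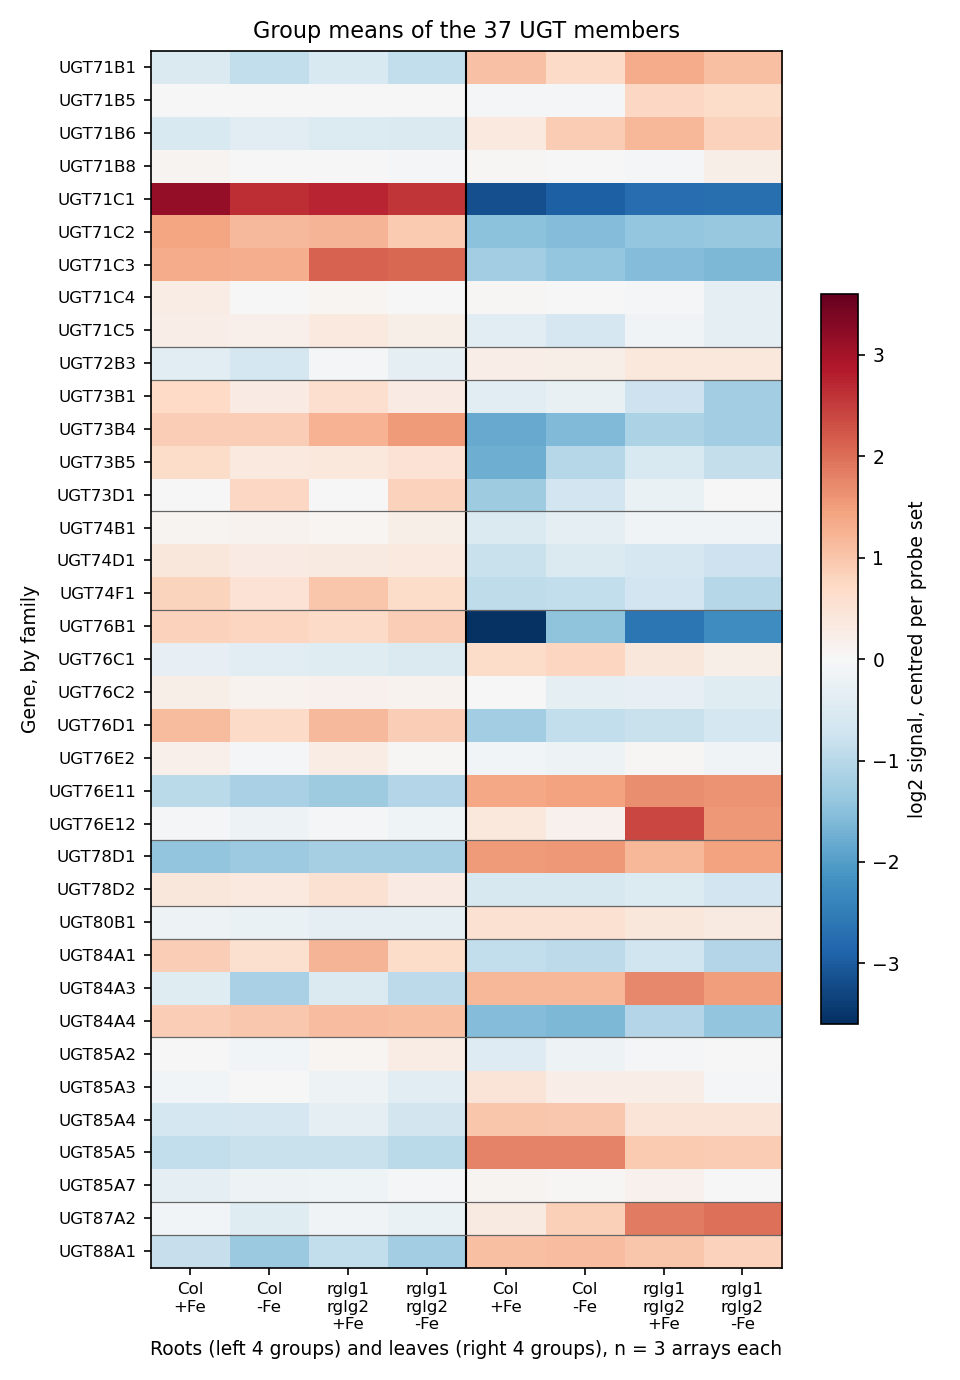
Mean centred log2 signal (colour) of each of the 37 UGT genes (rows, by family) in the 8 groups (columns, 3 arrays each), with roots left of the black line and leaves right of it. UGT71C1 runs from the deepest red in roots to dark blue in leaves, UGT71C3 is darker in mutant than in Col roots, and UGT87A2 is darker in mutant than in Col leaves.

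The comparison of Col leaves with Col roots on +Fe addressed where each member is expressed. With limma, 32 of the 37 members were called different at an adjusted p under 0.05, which is the rule for a call throughout, beside 70.6% of all probe sets. Of these members, 13 were higher in leaves, beside 32% of all probe sets, and 19 were higher in roots, beside 38.6%. The arrays of the tissues did not overlap for 33 members, beside 75.1%. Across all members the median size of the difference was 1.2 in log2, against 0.60 over all probe sets. Of the called members, 20 differed by at least 2-fold. The share of all probe sets at that fold was not counted, so this count is not read as a trait of the family. In whole tissue, fewer cells of a type and less RNA per cell cannot be told apart.

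Among enzymes that conjugate flavonoids, UGT78D1, the flavonol 3-O-rhamnosyltransferase, was the most leaf-biased member, and UGT78D2, the flavonoid 3-O-glucosyltransferase, went the other way. UGT78D1 (AT1G30530) read 1.06, 1.58 and 1.94 in Col leaves and -1.49, -1.38 and -1.42 in Col roots. The groups did not overlap, and the difference was 7.74-fold, a log2 change of 2.95 ± 0.22 (SE, n = 3 per tissue, adjusted p = 4.47e-11). The leaf minus root difference of UGT78D2 was -0.98 ± 0.20. UGT76E11, which can glucosylate flavonols, was higher in leaves by 2.39 ± 0.25.

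Members acting on benzoates and immune signals lay on the root side. UGT71C1 (AT2G29750), which glucosylates hydroxycinnamates and dihydroxybenzoates in vitro, read 3.10, 3.19 and 3.23 in Col roots and -3.33, -3.39 and -2.78 in Col leaves. That gap of 80.9-fold, a log2 leaf minus root difference of -6.34 ± 0.17 (adjusted p = 2.61e-18), exceeded those of the other 36 members. UGT76B1 (AT3G11340), which conjugates isoleucic acid, salicylic acid and N-hydroxypipecolic acid, had a leaf minus root difference of -4.39 ± 0.31, or 21-fold. UGT71C3, which acts on methyl salicylate, UGT76D1, which acts on dihydroxybenzoic acids, and UGT74F1, a salicylic acid glucosyltransferase, had differences of -2.58 ± 0.14, -2.37 ± 0.14 and -1.70 ± 0.13. All 5 members listed for these acceptors were thus called higher in roots, beside 19 of the 37 members and 38.6% of all probe sets. UGT89B1, listed for the same acceptors but outside the naming rule, shares a probe set with AT1G73885. The leaf minus root difference of that set was 0.41 ± 0.30 and was not called.

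The remaining roles were mixed. Of the enzymes that make hydroxycinnamate esters, UGT84A4 and UGT84A1 were lower in leaves (-2.45 ± 0.15 and -1.78 ± 0.20), while UGT84A3 was higher by 1.63 ± 0.30. All 4 UGT73 members were higher in roots, beside 38.6% of all probe sets. Their leaf minus root values were -2.70 ± 0.29 for UGT73B4, -2.42 ± 0.24 for UGT73B5, -1.27 ± 0.27 for UGT73D1 and -1.10 ± 0.13 for UGT73B1. UGT73B4 and UGT73B5 are known for their response to pathogens and to foreign compounds. Of the 5 UGT85A members, UGT85A5 (2.69 ± 0.13), UGT85A4 (1.65 ± 0.16), UGT85A3 (0.57 ± 0.14) and UGT85A7 (0.46 ± 0.12) were higher in leaves, and UGT85A2 was lower (-0.48 ± 0.19). UGT88A1, with no role assigned, was higher in leaves by 1.92 ± 0.10, and UGT76C1, a cytokinin N-glucosyltransferase, by 0.96 ± 0.12. The 5 members not called were UGT71B5, UGT71B8, UGT76C2, UGT76E12 and UGT87A2. Whether roots and leaves were normalized together is not given in the sources used here, so every leaf minus root value rests on the deposited values as they stand, with array medians between -0.136 and 0.049. After quantile normalization 30 members were called, 13 higher and 17 lower in leaves.

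**Figure D2:**
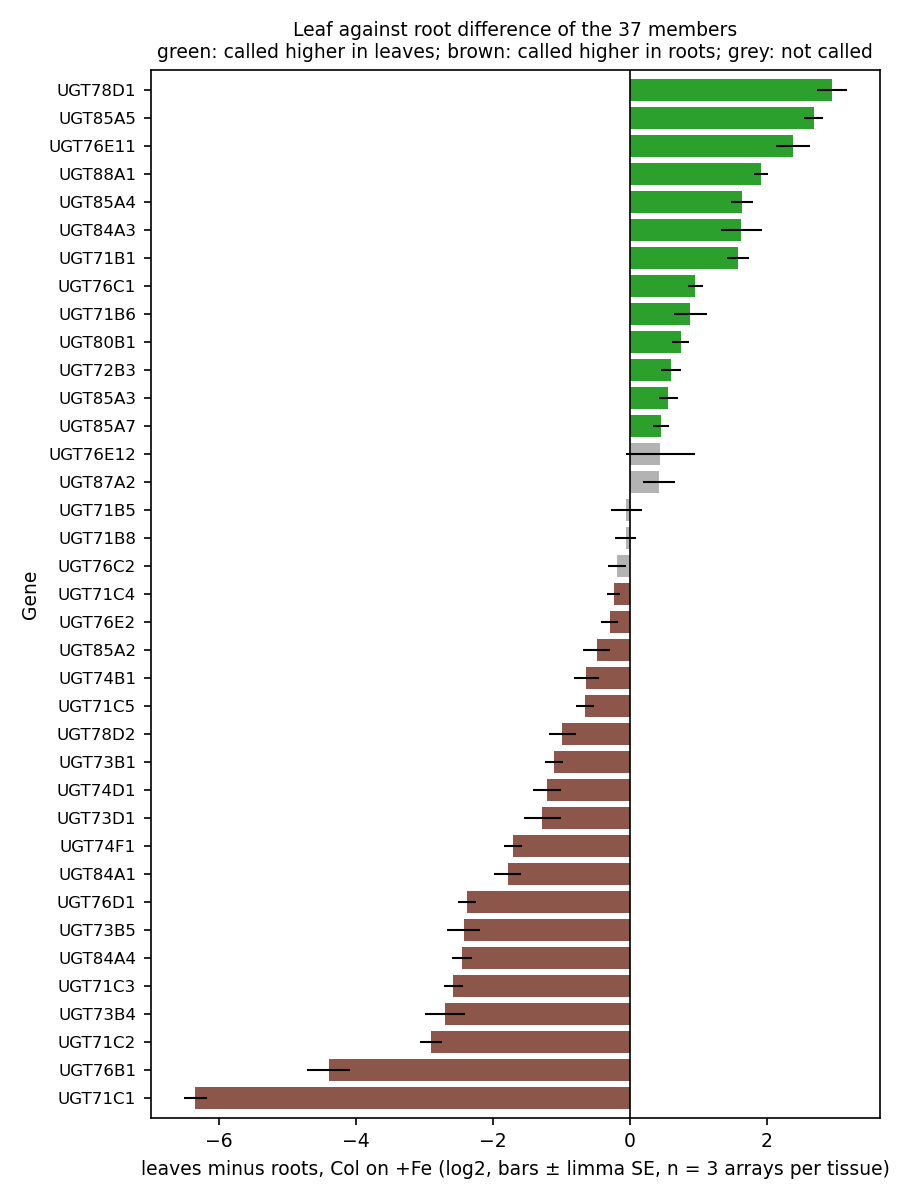
Leaf minus root difference in log2 (bars, with the limma SE as error bars, n = 3 arrays per tissue) of the 37 members in Col on +Fe. The bars run from -6.34 for UGT71C1 to 2.95 for UGT78D1, with 19 brown bars called higher in roots and 13 green bars called higher in leaves.

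In Col roots, loss of iron addressed which members respond to the iron supply where iron is taken up. A single member rose, UGT73D1, and 5 fell: UGT84A3, UGT88A1, UGT71C1, UGT76D1 and UGT71C4. Those 6 calls made up 16.2% of the members, beside 5.17% of all probe sets (2.2% higher and 2.97% lower). The arrays of the media did not overlap for 16 members, beside 20.3% of all probe sets. The changes were small, below 2-fold in every member. The median change of the members was -0.10, with 26 of 37 below 0, while the median of all probe sets was 0.01 and 53.5% of them lay above 0.

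UGT73D1 (AT3G53150) read -0.09, 0.25 and -0.20 on +Fe and 0.84, 0.82 and 0.57 on -Fe in Col roots. Every -Fe array lay above every +Fe array, and the rise was 1.69-fold (log2 0.76 ± 0.12, adjusted p = 0.00121). In mutant roots UGT73D1 read 0.03, 0.09 and -0.06 on +Fe and 0.73, 0.97 and 0.82 on -Fe. The groups again did not overlap, with a rise of 1.76-fold (log2 0.82 ± 0.12, adjusted p = 0.000704). This was the only member that rose in roots of either genotype, and its call held in both under all 20 alternative fits.

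UGT84A3 (AT4G15490), which makes glucose esters of hydroxycinnamic acids, read -0.31, -0.40 and -0.60 in Col roots on +Fe and -0.91, -1.47 and -1.09 on -Fe. It fell by 0.72 ± 0.14 in log2 (adjusted p = 0.0048), with no overlap between the media. Its values in mutant roots were -0.53, -0.57 and -0.48 on +Fe and -0.82, -1.15 and -0.85 on -Fe. These did not overlap either, but the change of -0.41 ± 0.14 was not called.

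UGT88A1 (AT3G16520) fell in the roots of both genotypes. It read -0.92, -0.76 and -0.78 on +Fe and -1.51, -1.23 and -1.24 on -Fe in Col, a change of -0.51 ± 0.10 (adjusted p = 0.00442). In the mutant it read -0.93, -0.96 and -0.81 on +Fe and -1.29, -1.29 and -1.20 on -Fe, a change of -0.36 ± 0.10 (adjusted p = 0.0364). The media did not overlap in either genotype. UGT84A3 and UGT88A1 are both higher in leaves than in roots, and all 4 measured green-tissue markers (RCA, PSBY, PSAN and PSAE1) also fell in roots on -Fe in both genotypes. Their mean lay at -2.17 to -1.98 in Col roots on +Fe and at -3.09 to -2.66 on -Fe, and at -2.17 to -2.07 and -3.04 to -2.84 in mutant roots. Other members were also higher in leaves by at least 1.58. Of these, UGT78D1, UGT85A5 and UGT85A4 changed by 0.13, 0.09 and 0.02 in Col roots on -Fe. UGT76E11 and UGT71B1 changed by -0.18 and -0.35 there. In mutant roots the changes, in the same order, were -0.003, -0.16, -0.30, 0.21 and -0.34. None of these changes was called. The part of green tissue in the falls of UGT84A3 and UGT88A1 was not tested.

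The other falls in Col roots were of members called higher in roots than in leaves, though only slightly so for UGT71C4. Its means on +Fe were 0.28 in Col roots and 0.05 in Col leaves. UGT71C1 read 3.10, 3.19 and 3.23 on +Fe and 2.74, 2.64 and 2.61 on -Fe, a change of -0.51 ± 0.13 (adjusted p = 0.0318). UGT76D1 (AT2G26480) read 1.19, 1.08 and 1.12 on +Fe and 0.83, 0.46 and 0.82 on -Fe, a change of -0.43 ± 0.11 (adjusted p = 0.0271). UGT71C4 (AT1G07250), with no role assigned, read 0.22, 0.28 and 0.34 on +Fe and -0.01, 0.00 and -0.02 on -Fe, a change of -0.29 ± 0.08 (adjusted p = 0.0423). None of the 3 overlapped between media. In mutant roots their changes were -0.17 ± 0.13, -0.28 ± 0.11 and -0.06 ± 0.08, and none was called.

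**Figure D3:**
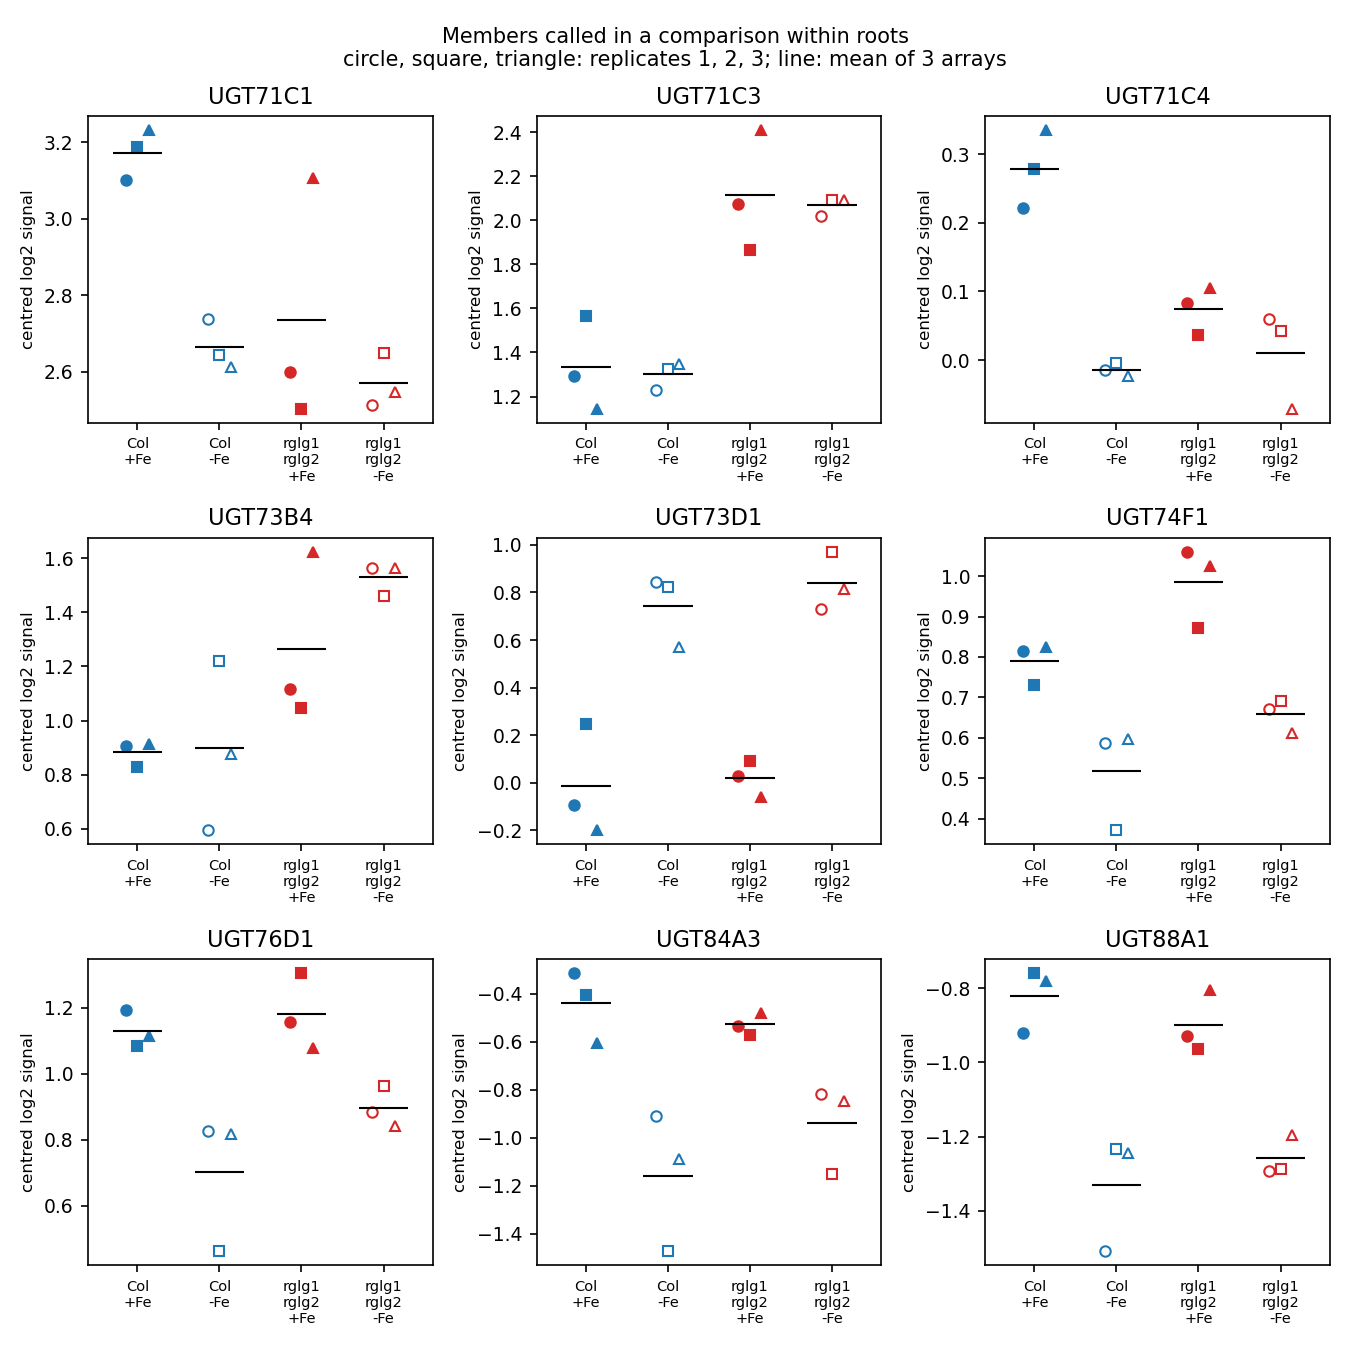
Centred log2 signal in each root array (circles, squares and triangles for replicates 1, 2 and 3; filled on +Fe, open on -Fe; blue for Col, red for rglg1 rglg2; line, mean of 3) of the 9 members called in a root comparison. UGT73D1 is higher on -Fe in both genotypes, UGT88A1 is lower on -Fe in both, and UGT71C3 is higher in the mutant on both media.

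The calls on UGT71C1, UGT76D1 and UGT71C4 depended on single arrays and on the fit. UGT71C1 lost its call without any 1 of the 6 Col root arrays (adjusted p = 0.0569 to 0.105), and UGT76D1 without Col +Fe replicate 1 or 2 or Col -Fe replicate 2 (0.107, 0.0556 and 0.13). UGT71C4 lost it in 10 of the 12 omissions of 1 root array, all but those of mutant +Fe replicates 2 and 3 (0.055 to 0.114). With only the Col root arrays in the fit UGT76D1 (0.104) and UGT71C4 (0.126) were lost, UGT71C1 was lost after quantile normalization (0.0637), and UGT71C4 with the replicate block (0.0654), the block within genotype (0.0834) and single-gene probe sets alone (0.0505). Instead of 6 there were 3 calls when either of Col +Fe replicates 1 and 2, or Col -Fe replicate 2, was omitted.

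Iron loss in the roots of the mutant called 3 members, UGT73D1 as a rise and UGT88A1 and UGT74F1 as falls, beside 7.11% of all probe sets (2.87% higher and 4.24% lower). Arrays of the media did not overlap for 12 members, beside 29.3%. UGT74F1 (AT2G43840), which makes the salicylic acid glucoside, read 1.06, 0.87 and 1.02 on +Fe and 0.67, 0.69 and 0.61 on -Fe. There was no overlap, and the change was -0.33 ± 0.09 (adjusted p = 0.0416). In Col roots UGT74F1 read 0.81, 0.73 and 0.82 on +Fe and 0.59, 0.37 and 0.60 on -Fe, a change of -0.27 ± 0.09 that was not called. The median change of the members in mutant roots was -0.09, with 27 of 37 below 0, while 49.9% of all probe sets lay above 0.

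The falls of UGT74F1 and UGT88A1 in mutant roots were lost without mutant +Fe replicate 1 (adjusted p = 0.159 and 0.091), without mutant -Fe replicate 1 (0.12 and 0.131), 2 (0.105 and 0.127) or 3 (0.151 and 0.0791), and after quantile normalization (0.0697 and 0.146). UGT88A1 was also lost without mutant +Fe replicate 2 (0.07), and UGT74F1 without Col +Fe replicate 1 (0.0566) or Col -Fe replicate 1 (0.0516). With mutant replicate 3 left out on both media, UGT74F1 (0.123) and UGT88A1 (0.0776) were both lost. They were also lost with only the probe sets of wider range over the arrays (0.0793 and 0.0607), and UGT74F1 with only the mutant root arrays in the fit (0.05035). The count of 3 became 1 without mutant +Fe replicate 1 or any mutant -Fe array, and 5 without Col -Fe replicate 2. A difference between control probe sets for the 5′ and 3′ ends of transcripts (3 of each) moved with this comparison. It was 0.01 ± 0.15 (SD, n = 3) with iron and 0.26 ± 0.03 without, and in Col roots 0.23 ± 0.10 and 0.26 ± 0.15. Its part in the calls was not tested.

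In Col leaves the response to iron loss had 1 call among the members, a rise, beside 1.03% of all probe sets (0.511% higher). The arrays of the media did not overlap for 8 members, beside 22.1%. UGT76B1 read -3.38, -3.69 and -3.61 on +Fe and -1.31, -2.47 and -0.54 on -Fe. All -Fe arrays lay above all +Fe arrays, though they were spread over almost 2 log2 units, from -2.47 to -0.54. The rise was 4.35-fold (log2 2.12 ± 0.40, adjusted p = 0.0239), the largest iron response of any member in either tissue. UGT76B1 lost its call without any 1 of Col +Fe replicates 1, 2 and 3 (adjusted p = 0.0769, 0.119 and 0.0915) or Col -Fe replicates 1 and 3 (0.0984 and 0.0877), over changes of 1.67 to 2.21. The next members by p, neither of them called, were UGT73B5 at 0.74 ± 0.29 (adjusted p = 0.363) and UGT76C2, a cytokinin N-glucosyltransferase, at -0.36 ± 0.15 (adjusted p = 0.386).

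In Col roots UGT76B1 read 0.75, 1.12 and 0.62 on +Fe and 0.82, 0.94 and 0.54 on -Fe, a change of -0.06. Tested directly, its iron response in Col was larger in leaves than in roots by 2.19 ± 0.45 (adjusted p = 0.00849), and this held under all 31 alternative fits. The leaf response of UGT76D1 exceeded that of roots by 0.78 ± 0.19 (adjusted p = 0.0394), with values of 0.35 in leaves, where it was not called, and -0.43 in roots. These were the 2 members called, beside 1.75% of all probe sets, and UGT88A1 followed at 0.52 ± 0.14 (adjusted p = 0.0671). UGT76D1 lost its call in 12 of 24 omissions of 1 array. These were Col root +Fe replicates 1, 2 and 3, Col root -Fe replicate 2, mutant root +Fe replicate 1, mutant root -Fe replicates 1, 2 and 3, Col leaf +Fe replicates 2 and 3, and Col leaf -Fe replicates 1 and 2 (adjusted p = 0.0521 to 0.143).

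In mutant leaves limma called 0 of the 37 members for the iron response, beside 0.427% of all probe sets. At an unadjusted p under 0.05 there were 2 members, beside 8.41% of all probe sets. The smallest in p were UGT73B1 at -0.52 ± 0.12 (adjusted p = 0.153), UGT71C4 at -0.29 (adjusted p = 0.551) and UGT74F1 at -0.33 (adjusted p = 0.61). UGT76B1 read -2.61, -2.42 and -2.78 on +Fe and -1.79, -2.03 and -2.90 on -Fe in mutant leaves. Replicate 3 on -Fe lay below all +Fe arrays, and the change of 0.36 was not called. Replicate 3 left out on both media also gave 0 calls, with the change of UGT76B1 at 0.60.

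The genotype by iron interaction, which tests whether the mutant responds differently, called 0 members in roots (beside 0.0168% of all probe sets) and 0 in leaves (0% of all probe sets) with limma. At an unadjusted p under 0.05 there was 1 member in roots, beside 7.76% of all probe sets, and 3 in leaves, beside 5.11%. In leaves these were UGT73B1 (-0.61), UGT76B1 (-1.76 ± 0.56) and UGT73B5 (-1.05), all at an adjusted p of 0.936. In roots, UGT73B5 came first at 0.45 ± 0.19 (adjusted p = 0.632), followed by UGT71C4 (0.23) and UGT85A2 (0.30). UGT73B5 in roots was called with array weights (adjusted p = 0.0491), and 1 member was called without mutant +Fe replicate 3. The iron responses of the genotypes were thus not shown to differ for any member.

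The genotype difference in roots asked what the double mutation changes where iron is taken up. UGT71C3 stood out on both media as higher in the mutant. Mutant roots on +Fe read 2.07, 1.87 and 2.41, and Col roots 1.29, 1.56 and 1.14. Every mutant array lay above every Col array, by 1.72-fold on average (log2 0.78 ± 0.13, adjusted p = 0.00228). On -Fe, UGT71C3 (AT1G07260) read 2.02, 2.09 and 2.09 for the mutant against 1.23, 1.32 and 1.35 for Col, again apart, by 1.70-fold (log2 0.77 ± 0.13, adjusted p = 0.00472). Both calls held under all 19 alternative fits. In leaves, where it is low, UGT71C3 differed by -0.31 on +Fe and -0.22 on -Fe and was not called. Replicate 3 of mutant leaves left out, it was called lower on +Fe (-0.39 ± 0.13, adjusted p = 0.0388), and the -Fe value was -0.08.

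Only 1 other member was called in roots on each medium. On +Fe the 2 calls, 1 higher and 1 lower, stood beside 10.7% of all probe sets (5.69% higher and 5.05% lower), and 8 members did not overlap, beside 24.6%. UGT71C1 was lower in the mutant there, at -0.44 ± 0.13 (adjusted p = 0.0423). Its mutant arrays read 2.60, 2.50 and 3.11 against 3.10, 3.19 and 3.23 for Col, so that mutant replicate 3 lay between Col replicates 1 and 2. This fall of UGT71C1 and its fall on -Fe in Col share the Col +Fe arrays. On -Fe both calls were higher, beside 3.89% of all probe sets (1.81% higher), and 10 members did not overlap, beside 29.4%. UGT73B4 (AT2G15490) was the second, with mutant values of 1.57, 1.46 and 1.56 against 0.60, 1.22 and 0.88 in Col. The groups did not overlap, and the difference was 0.63 ± 0.16 (adjusted p = 0.037). UGT72B3, of a subfamily known for monolignol glucosylation, followed on +Fe at 0.35 ± 0.11 (adjusted p = 0.0583), and UGT85A2 on -Fe at 0.35 ± 0.10 (adjusted p = 0.0817).

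UGT71C1 lost its genotype call without any 1 of the 12 root arrays but Col -Fe replicate 3 and mutant +Fe replicate 3 (adjusted p = 0.0508 to 0.173), and after quantile normalization (0.0656). The count on +Fe was 5 without mutant +Fe replicate 3 and 1 without any 1 of Col +Fe replicates 1 and 3, Col -Fe replicate 1, mutant +Fe replicates 1 and 2 and the 3 mutant -Fe arrays. UGT73B4 lost its call without Col -Fe replicate 1 (0.157) or 3 (0.0888) or mutant -Fe replicate 1 (0.136), 2 (0.093) or 3 (0.124), each of which left 1 member called on -Fe, and 4 were called without Col +Fe replicate 3. The 5′ to 3′ control difference given above, at 0.01 ± 0.15 in mutant and 0.23 ± 0.10 in Col roots on +Fe, moved with the genotype there, and its part was not tested.

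In leaves the genotype difference called 4 members on each medium. Calls on +Fe were UGT87A2 and UGT73B5, higher in the mutant, and UGT85A5 and UGT85A4, lower, beside 14.4% of all probe sets (7.18% higher and 7.18% lower). Those on -Fe were UGT87A2, higher, and UGT73B1, UGT85A5 and UGT76C1, lower, beside 15.9% (6.18% higher and 9.77% lower). As shares of the 37 members, both came to 10.8%. The genotypes did not overlap for 18 members on +Fe, beside 37.4%, and for 8 on -Fe, beside 33.7%. The 5′ to 3′ control difference was 0.09 ± 0.16 in mutant and 0.07 ± 0.09 in Col leaves on +Fe, and -0.16 ± 0.15 and 0.09 ± 0.01 on -Fe. Its part in the -Fe calls was not tested. Of the 2 root markers, BGLU23 was higher in mutant leaves by 0.57 ± 0.19 on +Fe (adjusted p = 0.0688, not called) and by 0.94 ± 0.19 on -Fe (adjusted p = 0.00974), while EXPA7 differed by -0.14 and -0.10 and was not called. The mean of both markers lay at -2.23 to -1.83 in Col and -2.10 to -1.71 in mutant leaves on +Fe, and at -2.42 to -2.19 and -2.29 to -1.61 on -Fe, and above 1 in every root array. Their part in the leaf differences was not tested.

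UGT87A2 (AT2G30140), known from the control of flowering time and from salt and drought tolerance, was higher in the mutant on both media. Mutant leaves on +Fe read 2.08, 2.1 and 1.39, and those of Col 0.01, 0.29 and 0.70. The groups were apart, with replicate 3 of each genotype nearest to the other, and the difference was 2.89-fold (log2 1.53 ± 0.31, adjusted p = 0.00869). On -Fe, UGT87A2 read 2.43, 2.28 and 1.23 for the mutant against 0.63, 0.82 and 1.15 for Col. The genotypes came closest at replicate 3, where the mutant still lay above Col, and the difference was 2.17-fold (log2 1.12 ± 0.31, adjusted p = 0.0295). The -Fe call was lost without Col -Fe replicate 1 (0.0942) or 2 (0.0914) or mutant -Fe replicate 1 (0.108) or 2 (0.11), and with only the 6 arrays compared (0.0605). Without mutant replicate 3 on both media the differences were 1.76 ± 0.20 on +Fe and 1.49 ± 0.20 on -Fe, both called.

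UGT85A5 (AT1G22370), which raised salt tolerance when expressed in tobacco, was lower in mutant leaves on both media. On +Fe mutant leaves read 0.76, 1.19 and 0.90, and those of Col 1.93, 1.65 and 1.79, a difference of -0.84 ± 0.14 (adjusted p = 0.00427). On -Fe the mutant read 0.64, 1.08 and 1.0 and Col 1.78, 1.73 and 1.83, a difference of -0.87 ± 0.14 (adjusted p = 0.00352). Mutant replicate 3 lay between replicates 1 and 2 on both media, no mutant array reached the Col range, and both calls held under all 19 alternative fits. With that replicate left out on both media the differences were -0.82 ± 0.16 on +Fe and -0.92 ± 0.16 on -Fe.

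UGT73B1 (AT4G34138) was lower in mutant leaves on -Fe, where it read -1.26, -1.20 and -1.32 against -0.13, -0.38 and -0.31 in Col. All 3 mutant arrays lay close together and below Col, by 1.98-fold (log2 -0.99 ± 0.12, adjusted p = 0.000907), a call that held under all 19 alternative fits. On +Fe UGT73B1 read -0.59, -0.73 and -0.92 for the mutant against -0.52, -0.40 and -0.19 for Col, a difference of -0.37 that was not called. Leaving out mutant replicate 3 on both media gave -0.96 ± 0.13 on -Fe, called, and -0.29 ± 0.13 on +Fe, not called. UGT76C1 (AT5G05870), the cytokinin enzyme, read 0.21, 0.21 and 0.22 in mutant and 0.94, 0.66 and 0.75 in Col leaves on -Fe. The difference was -0.57 ± 0.13 (adjusted p = 0.0155), and UGT76C1 lost the call without Col -Fe replicate 1 (0.0592) or mutant -Fe replicate 2 (0.0517). On +Fe its difference was -0.26 and was not called. Once mutant replicate 3 was left out on both media, UGT76C1 was called on both, at -0.39 ± 0.12 on +Fe (adjusted p = 0.0316) and -0.57 ± 0.12 on -Fe (adjusted p = 0.00498).

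UGT73B5 (AT2G15480) read -0.50, -0.58 and -0.56 in mutant and -1.68, -2.10 and -1.52 in Col leaves on +Fe. The groups were apart, at 2.33-fold (log2 1.22 ± 0.29, adjusted p = 0.0197). On -Fe it read -0.13, -0.79 and -1.63 for the mutant against -0.79, -1.27 and -1.01 for Col, which overlapped, and the difference of 0.17 was not called. Replicate 3 of the mutant left out, it was 0.56 ± 0.22 (adjusted p = 0.0727) on -Fe and 1.23 ± 0.22 (adjusted p = 0.00216) on +Fe. The +Fe call of UGT73B5 was lost without Col +Fe replicate 1 (0.0543) or 2 (0.0788) or mutant +Fe replicate 1 (0.0689) or 2 (0.0616). UGT85A4 (AT1G78270), with no role assigned, read 0.57, 0.54 and 0.26 in mutant and 1.17, 1.0 and 0.86 in Col leaves on +Fe, a difference of -0.56 ± 0.17 (adjusted p = 0.048). It lost this call in 10 of 12 omissions of 1 leaf array, all but those of mutant -Fe replicates 1 and 3 (adjusted p = 0.0517 to 0.158), and after quantile normalization (0.0803). On -Fe UGT85A4 differed by -0.51 (adjusted p = 0.0615) and was not called. Mutant replicate 3 left out on both media, its differences were -0.46 on +Fe and -0.41 on -Fe, neither called.

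**Figure D4:**
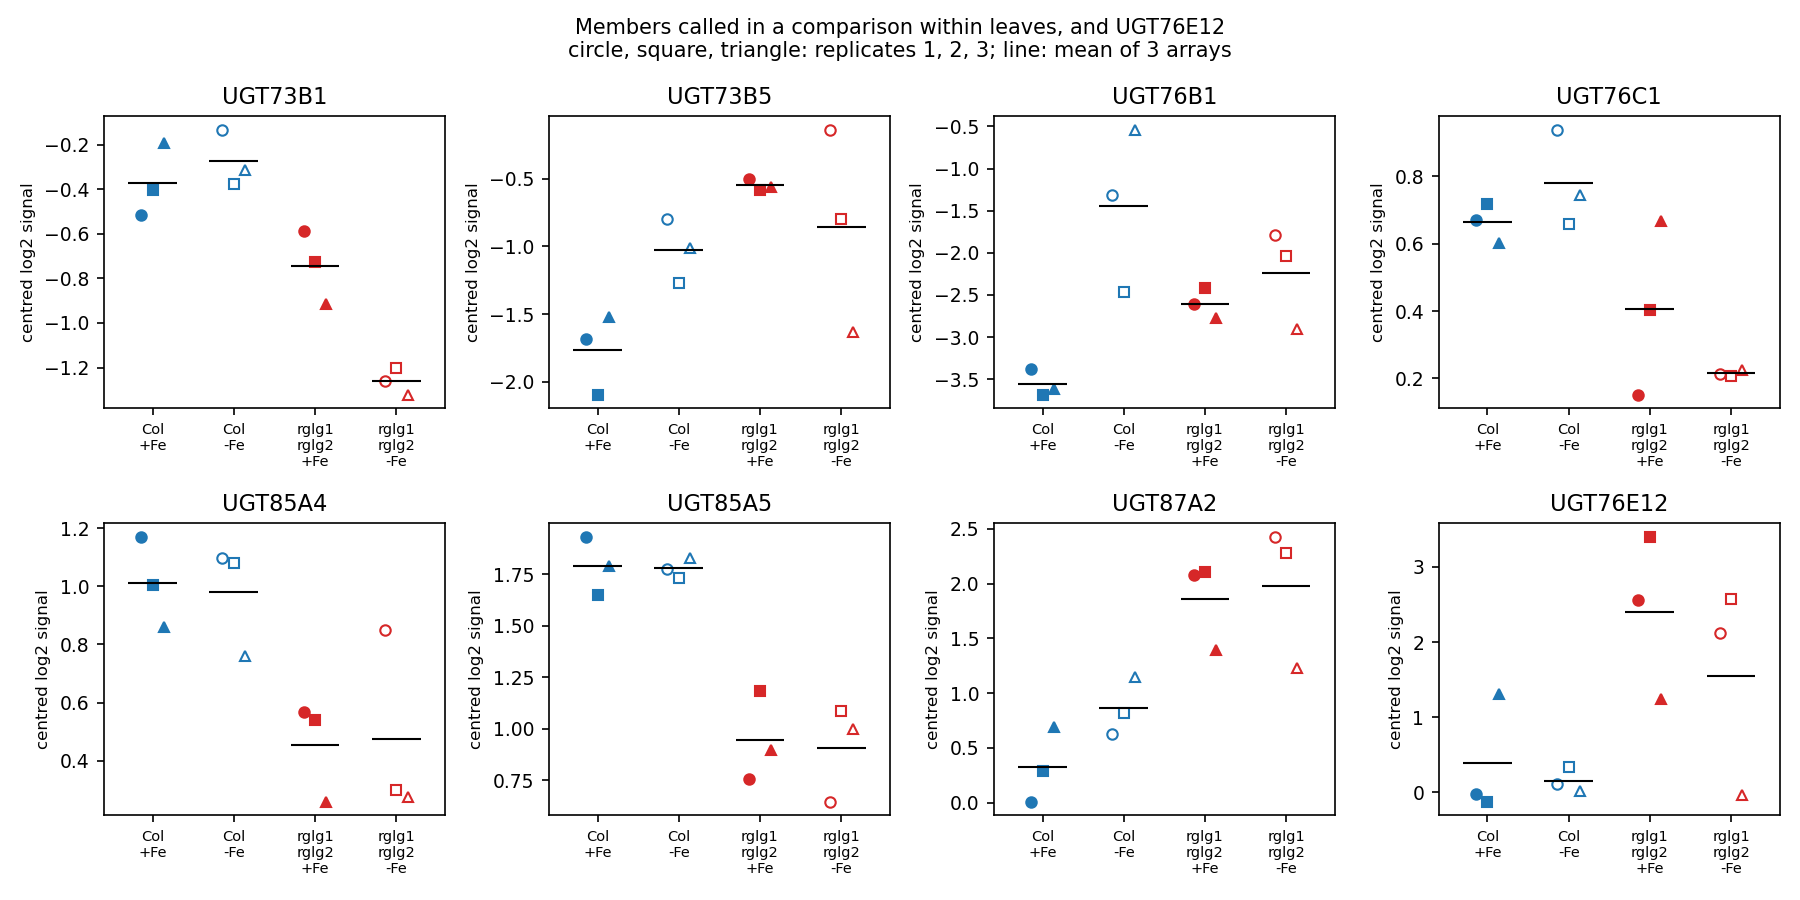
Centred log2 signal in each leaf array (circles, squares and triangles for replicates 1, 2 and 3; filled on +Fe, open on -Fe; blue for Col, red for rglg1 rglg2; line, mean of 3) of the 7 members called in a leaf comparison, and of UGT76E12. UGT85A5 is lower and UGT87A2 higher in the mutant on both media, and in UGT76E12 the mutant triangles lie at 1.24 and -0.04, below the other mutant arrays.

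How many members differed between genotypes in leaves depended on replicate 3 of the mutant. Replicate 3 left out on both media, 14 members were called on +Fe, 10 higher and 4 lower in the mutant, beside 31.8% of all probe sets (15.1% higher and 16.7% lower). On -Fe 14 were called as well, 11 higher and 3 lower, beside 32.3% (16.2% higher and 16.1% lower). Of the 4 members called with all arrays, 3 were among the 14 on +Fe (UGT85A4 was not, adjusted p = 0.0652), and all 4 were on -Fe. On +Fe the count was 9 without mutant +Fe replicate 3 alone and 11 without mutant -Fe replicate 3 alone, while on -Fe it was 13 without mutant -Fe replicate 3. On +Fe it was 2 without Col +Fe replicate 1 or 2 or mutant +Fe replicate 1 or 2, and on -Fe 2 without Col -Fe replicate 1 or mutant -Fe replicate 2.

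The widest gap between mutant arrays was in UGT76E12 (AT3G46660), which was singled out after its values were seen. It read 2.57, 3.40 and 1.24 in mutant leaves on +Fe and 2.12, 2.57 and -0.04 on -Fe, while Col leaves read -0.02, -0.13 and 1.31 on +Fe and 0.11, 0.33 and 0.02 on -Fe. Replicate 3 lay apart from replicates 1 and 2 in both genotypes on +Fe, and the 2 genotypes met there at 1.31 in Col and 1.24 in the mutant. The difference of 2.02 on +Fe (adjusted p = 0.0596) and 1.40 on -Fe (adjusted p = 0.161) was not called. Replicate 3 of the mutant left out, UGT76E12 was higher by 2.60 ± 0.38 (adjusted p = 0.000792) and 2.19 ± 0.38 (adjusted p = 0.00187).

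Other members called on both media only with replicate 3 of the mutant left out were UGT71B5, UGT73B4, UGT73D1, UGT84A3 and UGT85A2, all higher in the mutant. UGT71B5 (AT4G15280), with no role assigned, read 0.98, 0.99 and 0.29 in mutant leaves on +Fe and 0.97, 1.14 and -0.17 on -Fe, and between -0.21 and 0.05 in the 6 Col leaf arrays. Without mutant replicate 3 it was higher by 1.05 ± 0.12 and 1.11 ± 0.12 (adjusted p = 0.000189 and 0.000143). UGT73D1 was then higher by 1.42 ± 0.18 and 1.06 ± 0.18, and UGT84A3 by 0.65 ± 0.15 and 0.92 ± 0.15. Over the whole family, mutant leaf replicate 3 lay nearer to the Col mean than to the other mutant arrays in 15 of 37 members on +Fe and 23 on -Fe, beside 52.4% and 51.9% of all probe sets.

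**Figure D5:**
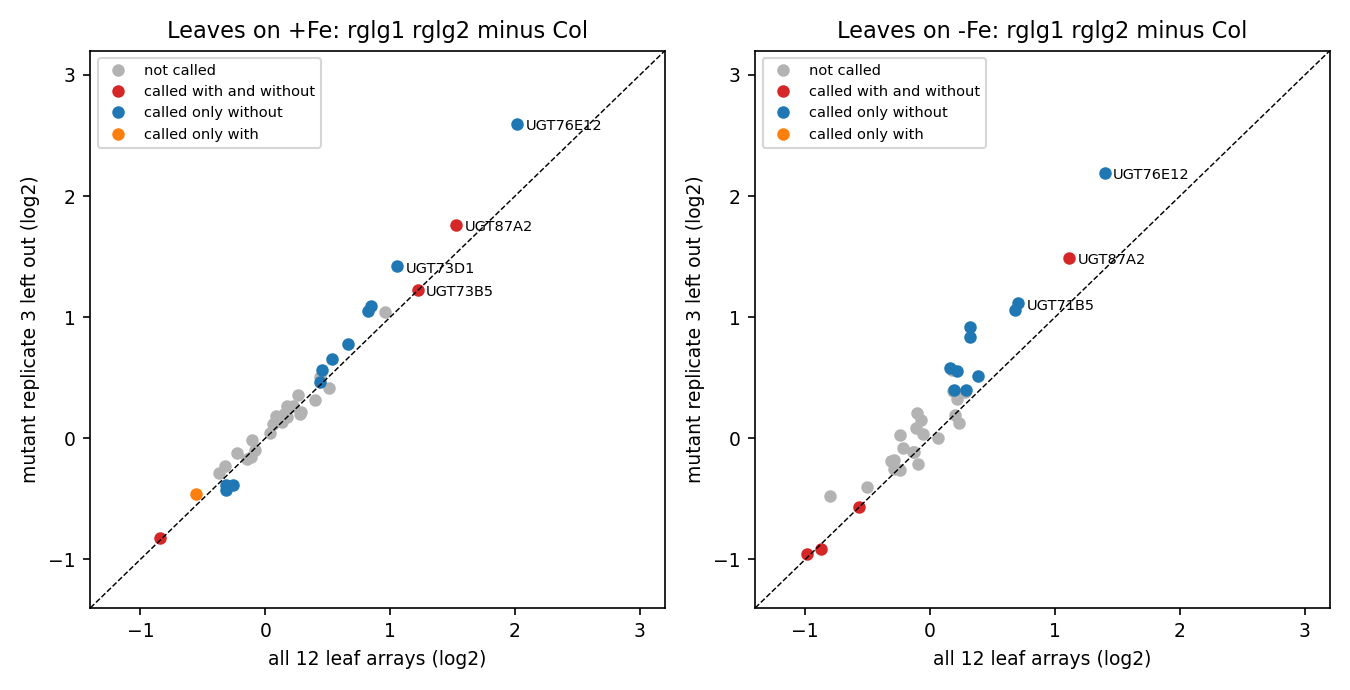
Difference between genotypes in leaves (rglg1 rglg2 minus Col, log2) of the 37 members with all 12 leaf arrays (horizontal) and with replicate 3 of the mutant left out on both media (vertical), on +Fe (left) and -Fe (right), with equality dashed. UGT76E12 moves from 2.02 to 2.60 on +Fe and from 1.40 to 2.19 on -Fe, and UGT85A5, called either way, stays near the line.

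With all arrays, 0 members were called in both roots and leaves among the 10 comparisons within a tissue with limma. Over all probe sets 5.69% were called in both. Altogether 9 members were called in roots, beside 18.7% of all probe sets, 7 in leaves, beside 23.2%, and 21 in none, beside 63.7%. Replicate 3 of mutant leaves left out, 20 members were called in leaves, beside 42.7%, and 13 in none, beside 48.6%. Then 5 members were called in both tissues, beside 9.99%: UGT71C3, UGT73B4, UGT73D1, UGT76D1 and UGT84A3.

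With all arrays, the changes of the 21 members called in none ran from -0.35 to 0.18 for iron in Col roots, from -0.56 to 0.21 in mutant roots, from -0.36 to 0.55 in Col leaves and from -0.85 to 0.26 in mutant leaves. Between genotypes they ran from -0.29 to 0.35 and from -0.37 to 0.35 in roots, and from -0.33 to 2.02 and from -0.29 to 1.40 in leaves, on +Fe and -Fe. UGT76E12 set the lowest value for iron in mutant leaves and both of the highest between genotypes in leaves. The 21 include the measured enzymes for abscisic acid (UGT71B6, UGT71B8 and UGT71C5), for auxin (UGT74D1), for the thiohydroximate step of glucosinolate synthesis (UGT74B1), for sterols (UGT80B1) and both UGT78D members. Of the abscisic acid enzymes, UGT71B6 was called higher in mutant leaves on +Fe (1.09 ± 0.28, adjusted p = 0.0124) and UGT71C5 on -Fe (0.40 ± 0.11, adjusted p = 0.0215) once replicate 3 of the mutant was left out. A missed threshold does not show that these genes keep their level.

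Many members sit beside each other in the genome, and some neighbours differed in their calls while others lay on the same side. By the gene order of RefSeq TAIR10.1, 21 of the 37 lie in 8 groups with at most 2 other protein-coding genes between neighbouring members. UGT71C3, UGT71C4 and UGT71C5 are direct neighbours. On +Fe in roots the mutant differed from Col by 0.78 ± 0.13 in UGT71C3, which was called, and by -0.20 and 0.13 in the other two, which were not. UGT85A7, UGT85A2, UGT85A5 and UGT85A3 follow each other without a gene between. Of these, UGT85A5 alone was called lower in mutant leaves on +Fe, at -0.84, beside 0.04 for UGT85A7, 0.44 for UGT85A2 and -0.23 for UGT85A3. UGT84A1, UGT84A3 and UGT84A4 are adjacent, and of them UGT84A3 was higher in leaves and the other two in roots. The neighbours UGT71C1 and UGT71C2 were both higher in roots, with leaf minus root values of -6.34 and -2.90, as were UGT73B4 and UGT73B5. Differences between neighbours were not tested, nor was cross-hybridisation between close copies. All 37 probe sets carry the plain suffix of ATH1 sets, with no mark for several transcripts.

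Of the listed genes that supply or use the same pathways, few had a named probe set. Measured were 3 of 23 genes of flavonoid and anthocyanin synthesis, 1 of 28 of UDP-sugar supply, 1 of 17 of glucosinolate synthesis and 1 of 5 of sinapate ester synthesis. In mutant roots on +Fe, DFR, the dihydroflavonol reductase, was lower (-0.80 ± 0.21, adjusted p = 0.0276), as was USP, which makes UDP-sugars from sugar phosphates (-0.37 ± 0.10, adjusted p = 0.0311). BCAT4, which acts early in methionine-derived glucosinolate synthesis, was higher there by 0.93 ± 0.11 (adjusted p = 0.000234), and higher in mutant roots on -Fe by 0.52 ± 0.11. BCAT4 also rose in Col roots on -Fe, by 0.51 ± 0.11 (adjusted p = 0.0154), in a comparison that shares the Col +Fe arrays with the first. No gene of these lists was called in a comparison within leaves. UGT74B1, which acts downstream of BCAT4 in glucosinolate synthesis, differed between genotypes in roots by -0.03 on +Fe and 0.09 on -Fe.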

How the data were processed

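Transcripts of roots and leaves were measured on 24 Affymetrix ATH1 arrays. The deposited table holds log2 signals, made with RMA per the submitters' processing notes (no version given). Each probe set is centred on its median over the arrays (within 5e-07), a step whose origin is not given in the sources used here. All columns were matched to samples by label, with 0 left over. Of 17854 probe sets 44 controls were left out. Genes came from the platform annotation, and loci and neighbours from RefSeq TAIR10.1, which matched all 37 members.

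Groups of 3 arrays were compared with limma 3.58.1 in R 4.3.3 (lmFit, eBayes), on the 12 arrays of a tissue (8 residual degrees of freedom) or on all 24 across tissues (16), two-sided. P-values were adjusted by Benjamini-Hochberg over 17810 probe sets in each of 12 comparisons, and called at under 0.05. The fit was tested on simulated data. Errors beside log2 changes are limma's SE. Members called were named, or the 3 smallest in p where fewer than 3 were, and between tissues the 8 largest in each direction, with others of that comparison added after their values were seen to complete a role or subfamily. Members and lists were chosen with earlier results of these data known. No filter on dim probes was possible, because centred values carry no level, and a filter on the range over arrays was tried instead.

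Equally numbered arrays deviated together across media in mutant leaves (r = 0.391 to 0.599), with no source in the labels. Replicate 3 stood apart there on both media, which alone can make the deviations alike, so these values do not settle a pairing. In the other groups at least 1 pair lay at or below 0.1. Col leaves ranged from 0.0455 to 0.339 across media, and each +Fe array there deviated most like the equally numbered -Fe array. Between genotypes in -Fe roots the same held for each Col array, at 0.0369 to 0.132. Whether those arrays are paired is not given in the labels. For the iron response in mutant leaves, a fit with the replicate number as a block called 0 members as well.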

Additional observations from a re-analysis of the deposited data

Results flagged for a closer look

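For 2 members the iron response differed between the tissues of Col in a direct test. UGT76B1 responded more strongly in leaves than in roots by 2.19 ± 0.45 in log2 (limma, adjusted p = 0.00849), with all 3 -Fe leaf arrays above all 3 +Fe leaf arrays. This direct test held under all 31 alternative fits. The call of its rise within Col leaves was lost in 5 omissions of 1 array, and the -Fe leaf arrays ran from -2.47 to -0.54. For UGT76D1 the difference was 0.78 ± 0.19 (adjusted p = 0.0394), between a fall in roots and a change of 0.35 in leaves that was not called by itself. The call on this difference was lost in 12 of 24 omissions of 1 array. Groups of 3 arrays are too small for a test of single outlying arrays.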

How the results depend on the processing

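Counts of members called depended on the fit in comparisons of Col alone as well as in those with the mutant. Of the named members, 0 of the 1253 alternative values reversed, 1139 kept their direction and side of the threshold, 101 lost the call and 13 gained one. These members were named for a call or a small p in these same data, which favours a kept direction. Omitting an array outside a comparison also leaves its change as it was, so the 0 reversals cannot show how stable the directions are. Counts below are members called, of 37, and all alternatives were planned with earlier results of these data known. They are given without the shares of all probe sets, so they cannot show whether a shift is particular to the family. Those shares can move too. Without replicate 3 of the mutant on both media, the share called for genotype in leaves went from 14.4% to 31.8% on +Fe. On -Fe it went from 15.9% to 32.3%. With the fit limited to the arrays of each comparison, 5 were called for iron in mutant roots, 1 and 4 for genotype in roots on +Fe and -Fe, and 10 for genotype in leaves on +Fe. With array weights the counts were 11 for iron in mutant roots, 2 for iron in mutant leaves, 5 and 5 for genotype in roots, 23 and 17 for genotype in leaves on +Fe and -Fe, 1 for the interaction in roots and 7 for the difference in iron response between Col tissues. After quantile normalization 1 was called for iron in mutant roots and 1 for genotype in roots on +Fe. With replicate 3 of the mutant left out on both media, 1 was called for iron in mutant roots, 4 and 1 for genotype in roots, and 14 and 14 for genotype in leaves. The cause of these shifts was not tested.

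Omitting 1 array at a time gave 3 to 8 for iron in Col roots, 1 to 5 in mutant roots, 0 to 1 in Col leaves and 0 to 0 in mutant leaves. For genotype it gave 1 to 5 and 1 to 4 in roots, and 2 to 11 and 2 to 13 in leaves, on +Fe and -Fe. For the interaction it gave 0 to 1 in roots and 0 to 0 in leaves, for leaves against roots 29 to 33, and for the tissue difference in iron response 1 to 3. With the replicate number as a block the counts were 5, 3, 1 and 0 for iron in Col roots, mutant roots, Col leaves and mutant leaves, 2 and 2 for genotype in roots, 6 and 5 in leaves, 0 and 0 for the interactions, 32 for leaves against roots and 2 for the tissue difference in iron response. A replicate block within each genotype gave 5 for that last comparison. For iron in mutant leaves the block gave 0 calls, as did the fit without it. The labels give only a shared number, and the correlations across media, in mutant leaves as in Col leaves, do not settle a pairing.

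The filter on dim probes was not run, because centred values carry no level. A filter that keeps the probe sets with the wider range, used in its place, kept 20 members in roots, 28 in leaves and 27 over all arrays. Under it UGT74F1 (adjusted p = 0.0793) and UGT88A1 (0.0607) lost their calls for iron in mutant roots. Signal over background is not known for these values, so dim members cannot be told from bright ones.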

Other observations

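Probe sets outside the naming rule also stand for UGT genes, 3 of them shared by several genes and 3 with a UGT name only among synonyms. The set shared by UGT73B2 and UGT73B3 was lower in Col roots on -Fe (-0.49 ± 0.13, limma adjusted p = 0.0367) and higher in mutant leaves on +Fe (1.13 ± 0.28, adjusted p = 0.0222), where UGT73B1 read -0.37 and was not called. UGT72B1, annotated as GT72B1 and known for the glucosylation of monolignols and of foreign compounds, was lower in Col roots on -Fe (-0.53, adjusted p = 0.00313) and higher in mutant leaves on +Fe (0.80, adjusted p = 0.0224) and -Fe (0.67, adjusted p = 0.0412). UF3GT was lower in mutant roots on +Fe (-0.45 ± 0.10, adjusted p = 0.0101). A set shared by AT1G73885 and UGT89B1 was higher in mutant leaves on -Fe (0.99 ± 0.28, adjusted p = 0.0317). The set shared by UGT71D1 and the set of SGT were not called within a tissue. These probe sets were singled out after their values were seen.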
